A study of Arabidopsis thaliana with 11 samples.

Results

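The gibberellin oxidases of Arabidopsis thaliana were followed across flower buds and leaves, gene by gene, in polyA-selected paired-end RNA-seq. The 10 genes were taken by their locus identifiers from the 28094 loci of the count tables. They were 3 GA 20-oxidases (GA20ox1, GA20ox2 and GA20ox3), 4 GA 3-oxidases (GA3ox1, GA3ox2, GA3ox3 and GA3ox4) and 3 GA 2-oxidases (GA2ox1, GA2ox2 and GA2ox6), chosen by name and not by level. Earlier results of these data were known when the genes were chosen. Of the 10 genes, 9 passed the filter on low counts, and GA3ox4 did not.

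All plants were wild type, untreated, grown in soil in a greenhouse and sampled at stage 6.0, when the first flower opens. The flower buds comprised 2 biological samples and the leaves 4. A HiSeq2000 read the flower buds and leaf 1 and 2, with a HiSeq run and a multiplex run per sample. Leaf 1 was labelled in parts 1a and 1b, where 1a had both runs and 1b a multiplex run only. Both parts were taken as 1 biological sample, which is an assumption. Leaf 3 and 4 were sequenced once, on a GA II. Nothing in the labels ties the numbered samples to separate plants, so p-values describe only how these samples vary, which can be technical variation.

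Gibberellins are growth hormones whose amount is set largely by 3 families of soluble dioxygenases. The 20-oxidases carry precursors through successive oxidations, the 3-oxidases make the bioactive hormone in the final step, and the 2-oxidases inactivate the hormone and its direct precursors. The bioactive hormone binds GID1 receptors, which then mark DELLA repressors for destruction, and in Arabidopsis this drives stem elongation, stamen filament growth and pollen development.

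The flower bud samples held 218477506 and 217267500 counted read pairs, while the totals were 35302492 and 37682650 in leaf 3 and 4, and 271060494 and 225332585 in leaf 1 and 2. Levels are given in CPM (read pairs relative to a TMM-scaled library size) and, to compare genes, in CPM per kb of counted sequence. A count of 0 allows up to 3 pairs, which was 0.00972 to 0.0104 CPM in flower buds, 0.101 to 0.106 CPM in leaf 3 and 4, and 0.0129 to 0.0137 CPM in leaf 1 and 2. The tissue labels were checked with 4 marker lists. Summed over 5 floral organ markers (AP1, AP3, PI, AG and SEP3), flower buds held 674 to 815 CPM and the 4 leaf samples 1.34 to 1.78 CPM. The 4 tapetum markers, from the cell layer that feeds pollen, summed to 116 to 155 CPM in flower buds and 0.155 to 0.524 CPM in leaves. STM and WUS, of the shoot meristem, summed to 42.1 to 52.0 CPM in flower buds and 0 to 0.0273 CPM in leaves. RCA, RBCS1A and CA1, of photosynthesis, summed to 5140 to 8265 CPM in flower buds and 24050 to 41810 CPM in leaves. Leaf 3 and 4 stood apart from leaf 1 and 2 in several oxidases, so flower buds are set against each pair. Against leaf 3 and 4, tissue and sequencer cannot be told apart, and between the pairs of leaf samples, leaf sample and sequencer cannot be told apart. The comparisons share samples and are not independent of each other.

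Flower buds and leaves had different leading isoforms in 2 of the 3 enzyme classes. GA20ox2 and GA3ox3 led their classes in flower buds and were at or near 0 in every leaf sample. GA20ox1 and GA3ox1 held nearly all of their classes in leaves, and GA3ox1 was lower in flower buds than in every leaf sample. Of the 2-oxidases, GA2ox1 was higher in flower buds than in every leaf sample, while the levels of GA2ox2 in flower buds lay within the range of the leaves. In bulk tissue, fewer cells of a type and less RNA per cell cannot be told apart.

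**Figure D1:**
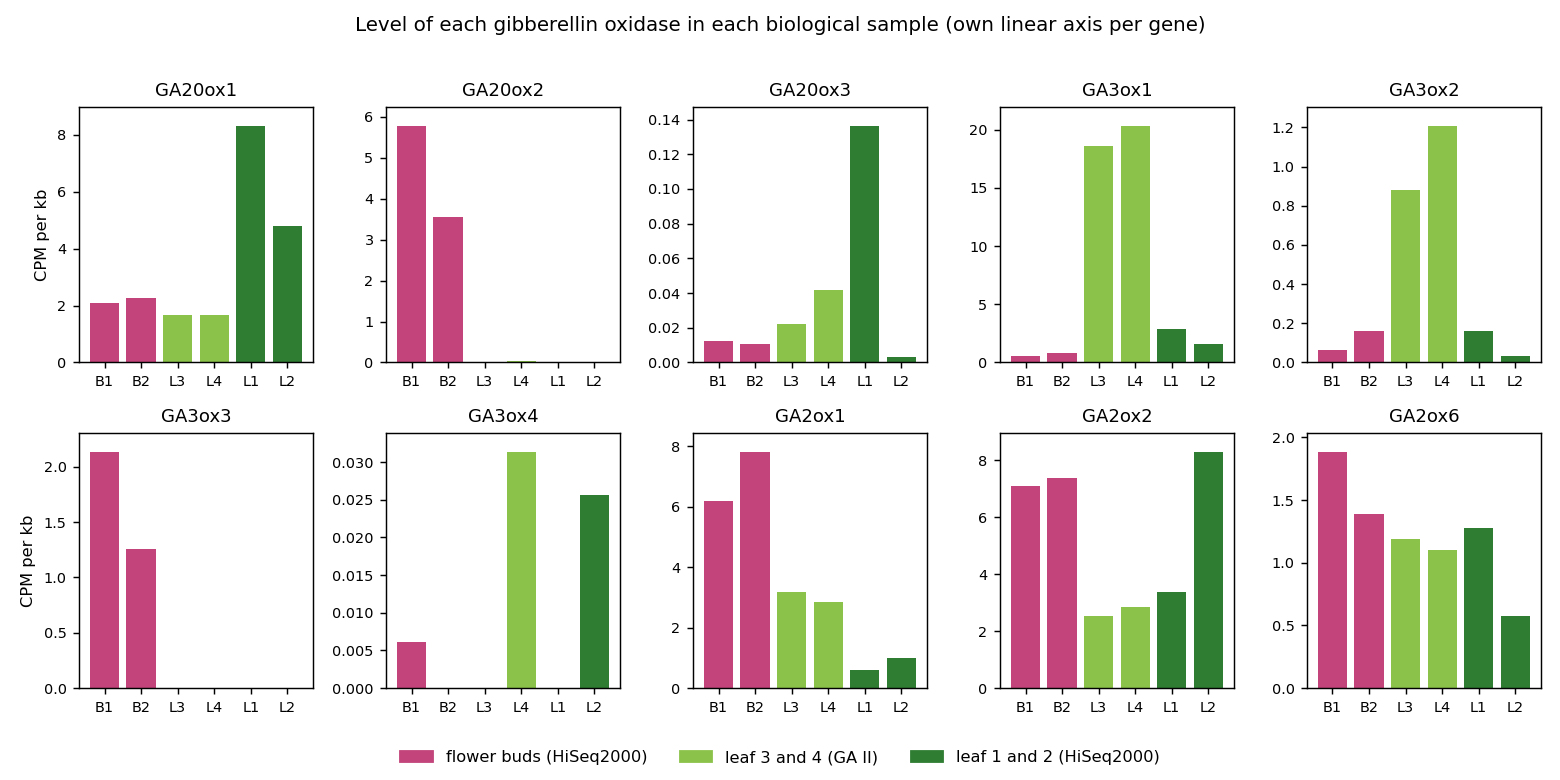
Level of each gibberellin oxidase (CPM per kb, own linear axis per gene starting at 0) in flower bud 1 and 2 (B1, B2), leaf 3 and 4 (L3, L4) and leaf 1 and 2 (L1, L2), with 1 bar per biological sample. GA20ox2 and GA3ox3 stand only in the flower bud bars at this scale, and GA3ox1 reaches 18.6 and 20.3 CPM per kb in leaf 3 and 4.

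A gene was called where the adjusted p of edgeR's quasi-likelihood test, over all 24043 loci tested, was under 0.05. Against leaf 1 and 2, GA20ox2, GA3ox3 and GA2ox1 were called higher in flower buds, and GA20ox1 and GA3ox1 were called lower. These 3 higher and 2 lower calls among 10 genes stand against 30.5% of all tested loci called higher, 20.9% called lower and 51.3% called in either direction, so the number of calls is near the background. Scaled by library size only, the split was 4 higher and 1 lower. All 24043 loci shifted too under that scaling, to 10405 called higher and 2991 lower, with a median log2 difference of 0.74. A fit with no sequencer term sets flower buds against all 4 leaf samples together, which is another comparison, and its values are given as such below. The median log2 difference of the 9 tested genes was 0.31, against 0.15 over all loci. Against leaf 3 and 4, GA20ox2, GA3ox3, GA2ox1 and GA2ox2 were called higher in flower buds and GA3ox1 and GA3ox2 lower, where 26.3% of all loci were called higher, 16.6% lower and 43.0% in either direction. The median log2 difference of the 9 tested genes there was 0.52, against 0.26 over all loci. Both flower bud samples lay above all 4 leaf samples for GA20ox2, GA3ox3, GA2ox1 and GA2ox6, and below all 4 for GA3ox1. Of all loci, 33.5% lay above in this way and 19.9% below.

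GA20ox1 (AT4G25420), a 20-oxidase with a main part in stem elongation, was the leading 20-oxidase of leaves. Its level was 2.10 and 2.27 CPM per kb in flower bud 1 and 2, 1.68 and 1.68 CPM per kb in leaf 3 and 4, and 8.32 and 4.80 CPM per kb in leaf 1 and 2. Flower buds were below leaf 1 and 2 with no overlap, and slightly above leaf 3 and 4. The log2 difference between flower buds and leaf 1 and 2 was -1.58 ± 0.37 (SE), with an adjusted p of 0.0105. This call was lost without flower bud 1 (adjusted p = 0.0559) and scaled by library size only (adjusted p = 0.0516). Against all 4 leaf samples, with no sequencer term, the log2 difference was -0.92 (adjusted p = 0.403). From leaf 3 and 4 flower buds differed by a log2 value of 0.38 ± 0.37, with an adjusted p of 0.439.

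GA20ox2 (AT5G51810), a 20-oxidase that shares work with GA20ox1 in reproductive growth, was the leading 20-oxidase of flower buds. It had 2499 and 1442 read pairs in flower bud 1 and 2, 0 and 1 in leaf 3 and 4, and 6 and 5 in leaf 1 and 2. These are levels of 5.78 and 3.55 CPM per kb in flower buds and at most 0.0240 CPM per kb in a leaf sample. The groups were far apart in every sample. The log2 difference from leaf 1 and 2 was 8.03 ± 0.64 (SE), with an adjusted p of 0.000214. The HiSeq runs alone, with 3309 pairs in flower buds and 9 in leaves, gave a ratio of 258 with a 95% counting interval of 136 to 566. Set against leaf 3 and 4, the ratio was 382.6 with a counting interval of 68.6 to 15110, which rests on a single leaf pair, and the adjusted p was 0.000464.

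GA20ox3 (AT5G07200) was barely detected in either tissue. It had 6 and 5 pairs in flower bud 1 and 2, 1 and 2 in leaf 3 and 4, and 51 and 1 in leaf 1 and 2. Leaf 1 alone stood out, and it did so in each of its libraries, with 34, 9 and 8 pairs. The log2 difference between flower buds and leaf 1 and 2 was -2.57 ± 1.36 (SE), with an adjusted p of 0.154. Without leaf 2 it was called at -3.57 (adjusted p = 0.00605), a comparison with leaf 1 alone. The ratio to leaf 3 and 4 was 0.356, with a counting interval of 0.0940 to 1.99 and an adjusted p of 0.568.

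GA3ox1 (AT1G15550, the GA4 locus), the main 3-oxidase of vegetative growth, was lowest in flower buds and highest in leaf 3 and 4. Its level was 0.562 and 0.849 CPM per kb in flower bud 1 and 2, 18.6 and 20.3 CPM per kb in leaf 3 and 4, and 2.87 and 1.54 CPM per kb in leaf 1 and 2. Flower buds were below every leaf sample, and leaf 3 and 4 were far above leaf 1 and 2. Flower buds differed from leaf 3 and 4 by a log2 value of -4.79 ± 0.44 (SE), with an adjusted p of 0.000426. Against leaf 1 and 2 the log2 difference was -1.64 ± 0.39, with an adjusted p of 0.0111. This second call was lost in the HiSeq2000 samples alone (adjusted p = 0.0520), without flower bud 1 (0.0649) and with a replicate block (0.0599). With no sequencer term, flower buds differed from all 4 leaf samples together by -3.94 (adjusted p = 0.0532).

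GA3ox2 (AT1G80340), a 3-oxidase known for its part with GA3ox1 in germination and vegetative growth, was low in flower buds and in leaf 1 and 2. Its level was 0.0628 and 0.159 CPM per kb in flower bud 1 and 2, 0.881 and 1.21 CPM per kb in leaf 3 and 4, and 0.159 and 0.0336 CPM per kb in leaf 1 and 2. The flower bud values overlapped those of leaf 1 and 2, and leaf 3 and 4 stood above both. The log2 difference from leaf 3 and 4 was -3.23 ± 0.88 (SE), with an adjusted p of 0.0237, and it was not called when either flower bud sample, leaf 3 or leaf 4 was left out (adjusted p 0.0649 to 0.145). Against leaf 1 and 2 the log2 difference was 0.20 ± 0.83, with an adjusted p of 0.856.

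GA3ox3 (AT4G21690), a 3-oxidase known from reproductive organs, was detected in flower buds only. It had 693 and 383 pairs in flower bud 1 and 2, and 0 pairs in all 4 leaf samples, in each of their libraries. Its level in flower buds was 2.14 and 1.26 CPM per kb. It was at least 211-fold higher in flower buds than in leaf 1 and 2, from 901 pairs in the HiSeq runs of flower buds against a floor of 3 pairs over both leaf samples, with an adjusted p of 0.00125. In relation to leaf 3 and 4, which were read less deeply, it was at least 34.8-fold higher, with an adjusted p of 0.00415.

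GA3ox4 (AT1G80330), the other 3-oxidase known from reproductive organs, had 2 and 0 pairs in flower bud 1 and 2, 0 and 1 in leaf 3 and 4, and 0 and 6 in leaf 1 and 2. It was not tested, and a tissue difference was not detectable at this depth. Its locus lies next to GA3ox2 on chromosome 1 in the RefSeq annotation of TAIR10.1, and how pairs that match more than 1 locus were counted is not given in the sources used here, so low counts of close relatives are uncertain.

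GA20ox2 and GA3ox3 were both higher in flower bud 1 than in flower bud 2. The summed tapetum markers were also higher in flower bud 1, at 155 CPM, than in flower bud 2, at 116 CPM. The summed floral organ markers were at 815 CPM and 674 CPM. Within these lists AP1 and MS1 were lower in flower bud 1, at 117 and 8.15 CPM, than in flower bud 2, at 154 and 8.65 CPM. The meristem markers went the other way, with 42.1 CPM in flower bud 1 and 52.0 CPM in flower bud 2. In leaves 0 to 2 of the 4 tapetum markers had no pair. The part of these cell types in the levels of GA20ox2 and GA3ox3 was not tested.

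GA2ox1 (AT1G78440), a 2-oxidase that inactivates the bioactive hormone, was high in flower buds. Its level was 6.17 and 7.82 CPM per kb in flower bud 1 and 2, 3.18 and 2.85 CPM per kb in leaf 3 and 4, and 0.604 and 0.990 CPM per kb in leaf 1 and 2. The 3 groups did not overlap. The log2 difference between flower buds and leaf 1 and 2 was 3.13 ± 0.39 (SE), with an adjusted p of 0.000919. With no sequencer term, the difference from all 4 leaf samples together was 1.89 (adjusted p = 0.0801). Its log2 difference from leaf 3 and 4 was 1.21 ± 0.37, with an adjusted p of 0.0346, and was not called when either flower bud sample, leaf 3 or leaf 4 was left out (adjusted p 0.0852 to 0.204).

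GA2ox2 (AT1G30040), with the same enzymatic activity, was the most abundant oxidase of flower buds by mean level. Its level was 7.10 and 7.39 CPM per kb in flower bud 1 and 2, 2.54 and 2.83 CPM per kb in leaf 3 and 4, and 3.37 and 8.30 CPM per kb in leaf 1 and 2. Leaf 2 was above both flower bud samples and the other 3 leaf samples were below them. Against leaf 1 and 2 the log2 difference was 0.31 ± 0.43 (SE), with an adjusted p of 0.567. It was -0.20 without leaf 1 (adjusted p = 0.559) and 1.07, called, without leaf 2 (adjusted p = 0.0269), so its direction rests on which leaf sample is used. From leaf 3 and 4 it differed by 1.43 ± 0.45, with an adjusted p of 0.0376, and was not called when either flower bud sample, leaf 3 or leaf 4 was left out (adjusted p 0.116 to 0.181).

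GA2ox6 (AT1G02400), the remaining 2-oxidase of the 10 genes, also of that activity, was not called between flower buds and either pair of leaf samples. Its level was 1.89 and 1.39 CPM per kb in flower bud 1 and 2, 1.19 and 1.10 CPM per kb in leaf 3 and 4, and 1.28 and 0.578 CPM per kb in leaf 1 and 2. Flower buds lay above every leaf sample, but by less than the spread allowed for a call. The log2 difference was 0.82 ± 0.49 (SE) from leaf 1 and 2, with an adjusted p of 0.197, and 0.52 ± 0.50 from leaf 3 and 4, with an adjusted p of 0.438. Without leaf 1 the first was called at 1.5 (adjusted p = 0.0284), and scaled by library size only it was called at 1.44 (adjusted p = 0.0354), where the median of all loci was itself 0.74.

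**Figure D2:**
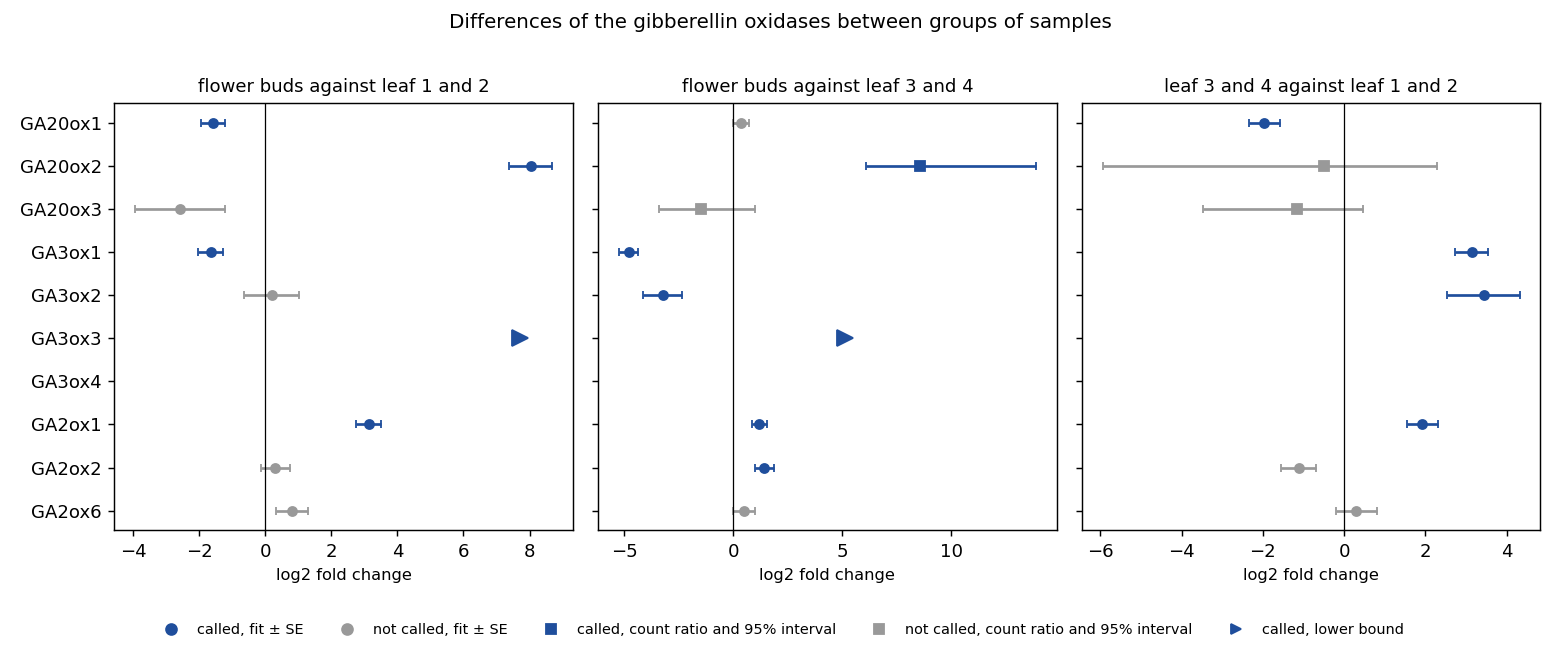
Log2 fold change of each gibberellin oxidase in flower buds against leaf 1 and 2, flower buds against leaf 3 and 4, and leaf 3 and 4 against leaf 1 and 2, with circles and SE from the fit, squares for ratios of counts with their 95% counting interval, and triangles for lower bounds where the leaf samples had 0 pairs. GA3ox4 was not tested, and in the leaf comparison GA3ox3 had 0 pairs in both groups. GA20ox2 and GA3ox3 lie far to the right in both flower bud panels.

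The leaf samples differed among themselves, GA3ox1 by the widest margin in level. Leaf 3 and 4 were close to each other. Over all loci, the chi-square per degree of freedom was 18.7 for leaf 3 with 4. It was 1430 for leaf 1 with 2 and 913 for the flower buds. This value grows with depth, which was lower in leaf 3 and 4. The fit used a single dispersion per gene for all samples. In leaf 3 and 4 against leaf 1 and 2, GA3ox1, GA3ox2 and GA2ox1 were called higher and GA20ox1 lower. These 3 higher and 1 lower calls stand against 12.1% of all loci called higher, 15.2% lower and 27.3% in either direction. The log2 difference was 3.14 ± 0.41 (SE) for GA3ox1, with an adjusted p of 0.00437, and 3.43 ± 0.89 for GA3ox2, with an adjusted p of 0.0315 (4.93 without leaf 1 and 2.74 without leaf 2). For GA2ox1 it was 1.92 ± 0.38, with an adjusted p of 0.0135, and for GA20ox1 -1.96 ± 0.38, with an adjusted p of 0.0128. GA2ox2 was at -1.12 ± 0.44, with an adjusted p of 0.103, and GA2ox6 at 0.30 ± 0.50, with an adjusted p of 0.696. Without leaf 3 only GA3ox1 was called, and without leaf 4 none was, by edgeR, where 4 genes were at an unadjusted p under 0.05. Without leaf 1, GA2ox2 was also called lower at -1.63 (adjusted p = 0.00826).

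Within the 20-oxidases, GA20ox2 made up 73.2% and 60.9% of the class sum of levels per kb in flower bud 1 and 2, and GA20ox1 the next 26.6% and 38.9%. In leaves GA20ox1 made up 98.7% and 96.2% in leaf 3 and 4, and 98.2% and 99.6% in leaf 1 and 2. Within the 3-oxidases, GA3ox3 made up 77.2% and 55.5% in flower bud 1 and 2, and GA3ox1 20.3% and 37.5%. In leaves GA3ox1 made up 94.3% to 96.3% of the class in all 4 samples, although its level differed widely between them. The leading isoform of both classes was thus the same in all 4 leaf samples and another one in both flower bud samples.

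The shares of GA2ox1, GA2ox2 and GA2ox6 were not divided in this way. They leave out the further GA2ox genes described below. Of those, GA2ox3 was at 2.33 and 1.77 CPM per kb in flower bud 1 and 2 and at most 0.0718 in a leaf sample. GA2ox4 was at 0.365 and 0.636 CPM per kb in flower bud 1 and 2, with 0 pairs in every leaf sample. GA2ox8 was found in every leaf sample too, and GA2ox7 had too few pairs. GA2ox1 made up 40.7% and 47.1% of the class in flower bud 1 and 2, 46.0% and 42.0% in leaf 3 and 4, and 11.5% and 10.03% in leaf 1 and 2. GA2ox2 made up 46.9% and 44.5% in flower bud 1 and 2, 36.8% and 41.8% in leaf 3 and 4, and 64.2% and 84.1% in leaf 1 and 2. GA2ox6 stayed between 5.86% and 24.3% in all 6 samples. For GA2ox1, leaf 3 and 4 overlapped the flower buds and leaf 1 and 2 lay below them.

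**Figure D3:**
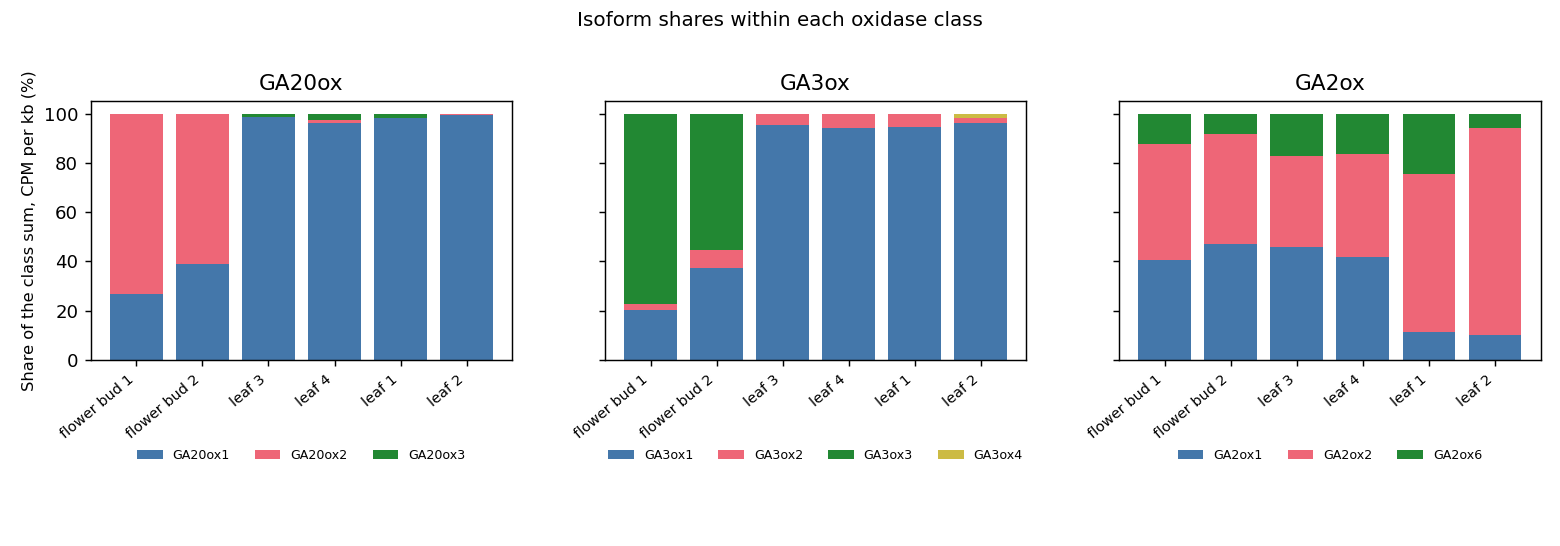
Share of each isoform in the summed level of its oxidase class (percent of CPM per kb) in 6 biological samples, with flower buds left, then leaf 3 and 4, then leaf 1 and 2. GA20ox2 and GA3ox3 fill 55.5% to 77.2% of their classes in flower buds, and GA20ox1 and GA3ox1 fill 94.3% or more in each leaf sample.

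The summed level of the 20-oxidases was 6.87 ± 1.45 CPM per kb (SD, n = 2 samples in this and the next sums) for flower buds, against 1.72 ± 0.0252 for leaf 3 and 4 and 6.64 ± 2.59 for leaf 1 and 2. The 3-oxidases summed to 2.52 ± 0.354 for flower buds, against 20.5 ± 1.44 for leaf 3 and 4 and 2.31 ± 1.01 for leaf 1 and 2. The 2-oxidases summed to 15.9 ± 1.02 for flower buds, against 6.84 ± 0.0820 for leaf 3 and 4 and 7.56 ± 3.27 for leaf 1 and 2. Flower buds and leaf 1 and 2 thus had overlapping class sums for both synthesis steps, with different leading isoforms, and flower buds had the higher sum of inactivating enzymes. The ratio of the synthesis classes to the 2-oxidases was 0.704 and 0.488 in flower bud 1 and 2, 3.08 and 3.43 in leaf 3 and 4, and 2.19 and 0.650 in leaf 1 and 2. Leaf 2, with its high GA2ox2, lay within the range of the flower buds and the other leaf samples lay above it. The 2-oxidase sums hold 3 genes of the class. With the further oxidases described below, 7 GA2ox genes and 9 synthesis genes in all, the ratio was 0.517 and 0.419 in flower bud 1 and 2, 2.64 and 2.88 in leaf 3 and 4, and 2.08 and 0.646 in leaf 1 and 2, so that leaf 2 then lay above both flower bud samples. Transcript sums across enzymes say nothing of enzyme activity or of hormone amount, which were not measured.

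**Figure D4:**
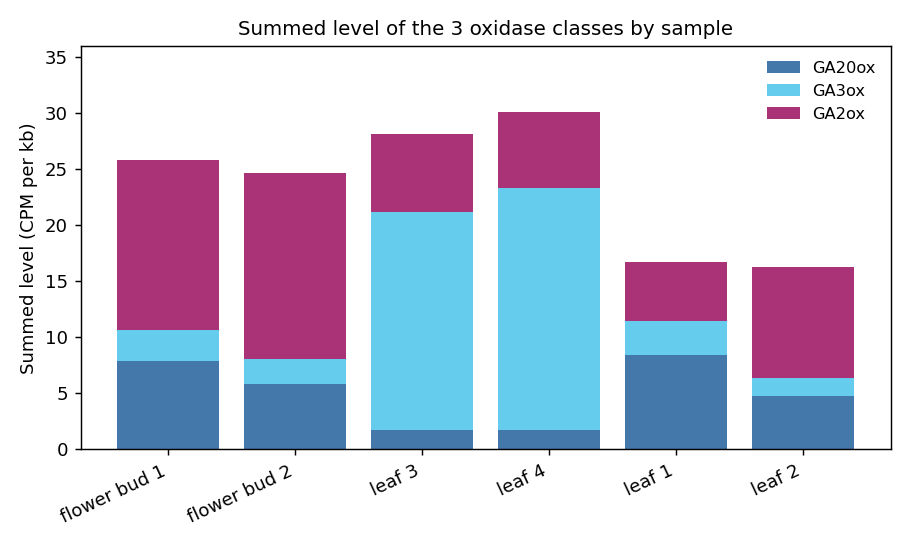
Summed level of the GA20ox, GA3ox and GA2ox classes (stacked, CPM per kb) in 6 biological samples, with flower buds left, then leaf 3 and 4, then leaf 1 and 2. GA2ox genes make up 58.7% and 67.2% of the total in flower bud 1 and 2, and 60.6% in leaf 2. GA3ox genes make up 69.4% and 71.7% in leaf 3 and 4.

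Ordered by mean level per kb, GA2ox2 and GA2ox1 led in flower buds at 7.25 ± 0.206 and 6.99 ± 1.17 CPM per kb (SD, n = 2), with overlapping samples, followed by GA20ox2 at 4.67 ± 1.57. GA20ox1, GA3ox3 and GA2ox6 came next with overlapping neighbours, then GA3ox1, GA3ox2, GA20ox3 and GA3ox4 without overlap. In leaf 3 and 4 the order was GA3ox1, GA2ox1, GA2ox2 and GA20ox1 without overlap, then GA2ox6 and GA3ox2, which overlapped, then the other 4 genes near 0. In leaf 1 and 2 it was GA20ox1 and GA2ox2, which overlapped, then GA3ox1, then GA2ox6 and GA2ox1, which overlapped, then the other 5 genes below 0.16 CPM per kb.

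The other gibberellin genes of the pathway were taken as a list of 36, of which 33 were tested. In flower buds against leaf 1 and 2, 13 were called higher and 6 lower, with a median log2 difference of 0.51 against 0.15 over all loci. That is 57.6% of the tested genes, beside 30.5% of all loci called higher, 20.9% lower and 51.3% in either direction. In flower buds against leaf 3 and 4, 16 were called higher and 1 lower, with a median of 1.28 against 0.26 over all loci, beside 26.3% and 16.6% of all loci. Scaled by library size only, the counts against leaf 1 and 2 were 17 higher and 4 lower. Of all 24043 loci, that scaling called 10405 higher and 2991 lower. Without either flower bud sample, fewer pathway genes were called against leaf 1 and 2, and fewer of all loci were called as well. Against all 4 leaf samples, with no sequencer term, 11 pathway genes were called, and over all loci 4796 higher and 2397 lower. None of the 5 early synthesis genes, which make the precursors of the oxidases, was called by edgeR against leaf 1 and 2, where 1 was at an unadjusted p under 0.05 and DESeq2 called 1. The nearest was GA2, the ent-kaurene synthase, at a log2 difference of 1.28 ± 0.47 (SE) and an adjusted p of 0.0581. Among the alternatives, DESeq2 (adjusted p = 0.0300), library size only (0.0141) and upper quartile factors (0.0287) called GA2 higher. So did a replicate block in the HiSeq2000 samples, at 1.39 (0.00857). Without leaf 2 its log2 difference was 2.08. In 13 of 18 alternatives GA2 stayed not called. In the comparison with leaf 3 and 4, GA1, the copalyl diphosphate synthase of the first step, was called higher at 1.46 ± 0.46 (adjusted p = 0.0381), but not when either flower bud sample, leaf 3 or leaf 4 was left out (0.0785 to 0.190).

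Of 6 further oxidases, 4 GA2ox genes and 2 GA20ox genes, the 3 that were tested were GA2ox genes, and all 3 were called higher in flower buds than in leaf 1 and 2. GA2ox3 had a log2 difference of 5.80 ± 1.29 (SE) and an adjusted p of 0.0121, GA2ox8 one of 3.57 ± 1.09 and 0.0299, and GA2ox4 was at least 56-fold higher, with an adjusted p of 0.00308. GA20ox4, GA20ox5 and GA2ox7 had too few pairs. GA2ox8, which acts on early precursors, rested mainly on flower bud 1, with 946 pairs against 107 in flower bud 2, and without flower bud 1 it was at 1.29 (adjusted p = 0.306), without flower bud 2 at 4.40 and without leaf 1 at 4.84. It was not called without leaf 2 (2.89, 0.0956), and against all 4 leaf samples with no sequencer term it was at 1.28 (0.490). Its log2 difference from leaf 3 and 4 was 0.38 ± 1.00 (adjusted p = 0.787), and -1.93 (0.215) without flower bud 1. For GA2ox3 all 19 pairs of leaf 1 and 2 were in leaf 1, and the log2 difference was 4.79 without leaf 2. GA2ox3 was not called without flower bud 1 (0.0826) or flower bud 2 (0.0570), nor by DESeq2 (0.114). Of 4 genes for other routes of inactivation, 3 were called higher, among them ELA1, a cytochrome P450 that deactivates gibberellins, at 5.20 ± 0.57 with an adjusted p of 0.000979. ELA2 was at least 18.5-fold higher (adjusted p = 0.00654) and GAMT1, a gibberellin methyltransferase, at least 11.01-fold higher (adjusted p = 0.00765). Neither was called without flower bud 1 (0.0679 and 0.0897) or flower bud 2 (0.0803 and 0.0581). GAMT1 was not called against leaf 3 and 4 (adjusted p = 0.198), whereas ELA1 and ELA2 were (0.000965 and 0.0425). The counts against leaf 1 and 2 stand beside 30.5% of all loci called higher.

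**Figure D5:**
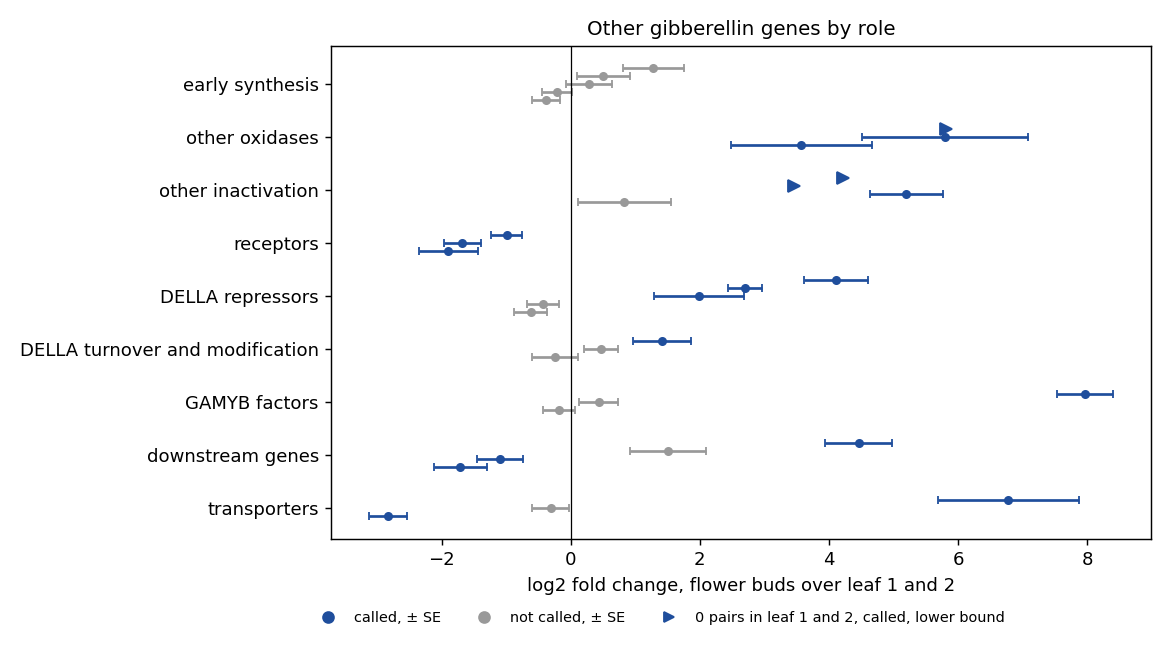
Log2 fold change of 33 tested gibberellin genes other than the oxidases above, in flower buds over leaf 1 and 2, by role, with 1 point per gene and its SE, and triangles for lower bounds where leaf 1 and 2 had 0 pairs. The 3 receptors lie left of 0 and the called DELLA genes and other inactivating enzymes right of it.

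All 3 GID1 receptor genes were called lower in flower buds than in leaf 1 and 2, beside 20.9% of all loci called lower. GID1C had a log2 difference of -1.68 ± 0.29 (SE) and an adjusted p of 0.00347, GID1B one of -1.90 ± 0.46 and 0.0126, and GID1A one of -0.99 ± 0.24 and 0.0126. GID1A was not called by library size only (-0.42, adjusted p = 0.229), GID1B not without flower bud 1 (0.0588), at -2.53 without flower bud 2, and neither against all 4 leaf samples with no sequencer term (0.241 and 0.431). In the comparison with leaf 3 and 4 only GID1C was called, at -1.17 ± 0.29 with an adjusted p of 0.0167, and not without flower bud 1 (0.0725), leaf 3 (0.128) or leaf 4 (0.0570), nor by library size only (-0.39, 0.313). Of the 5 DELLA repressors, RGL1, RGL2 and RGL3 were called higher in flower buds than in leaf 1 and 2, beside 30.5% of all loci called higher, with log2 differences of 2.70 ± 0.26 (adjusted p = 0.000371), 4.11 ± 0.49 (0.000782, and 4.88 without leaf 2) and 1.99 ± 0.69 (0.0481). GAI and RGA, the DELLAs best known from vegetative growth, were at -0.43 ± 0.25 (adjusted p = 0.185) and -0.62 ± 0.26 (0.0818), and RGA was called lower without flower bud 1 (0.0377). The call of RGL3 was lost without either flower bud sample, leaf 3 or leaf 4 (adjusted p 0.0768 to 0.177), and its log2 difference was 3.54 without leaf 1 and 1.21 without leaf 2. From leaf 3 and 4, flower buds differed in RGL3 the other way, by -1.06 ± 0.68 (adjusted p = 0.243), called without leaf 1 (0.0320) or leaf 2 (0.0220). Against all 4 leaf samples, with no sequencer term, RGL3 was at -0.22 (0.906).

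Among the genes that turn over or modify DELLAs, SNE, an F-box relative of SLY1, was called higher at 1.41 ± 0.45 (SE, adjusted p = 0.0352), with the call lost on leaving out any sample but leaf 1 (0.0690 to 0.190), while SLY1 was at 0.47 ± 0.26 (0.168) and SPY at -0.25 ± 0.36 (0.586). Of the GAMYB transcription factors, MYB101, known from pollen tubes, was called higher at 7.97 ± 0.43 (adjusted p = 0.000139), and MYB33 and MYB65, known from anthers, were at -0.19 ± 0.25 (0.558) and 0.44 ± 0.30 (0.264). Of 4 downstream genes, GASA4 was called higher at 4.46 ± 0.51 (adjusted p = 0.000696, and 5.29 without leaf 1), and GASA1 and SCL3 lower at -1.71 ± 0.41 (0.0125) and -1.09 ± 0.36 (0.0393). GASA1 was not called without flower bud 1 (0.0575) or flower bud 2 (0.0735), and was at -0.95 without leaf 1. SCL3 was not called on leaving out any sample but leaf 2 (0.0733 to 0.164), at -0.48 without leaf 1. SCL3 was called higher against leaf 3 and 4, at 1.61 ± 0.37 (adjusted p = 0.0131), but not without flower bud 1 (0.0701), leaf 3 (0.0677) or leaf 4 (0.102). Of the transporters, SWEET14 was called higher at 6.78 ± 1.10 (adjusted p = 0.00386), at 5.88 without leaf 1 and 9.44 without leaf 2, and SWEET13 lower at -2.83 ± 0.30 (0.000511), while NPF3.1 was at -0.31 ± 0.29 (0.396). Compared with leaf 3 and 4, SWEET13 and NPF3.1 were called higher in flower buds, at 1.35 ± 0.29 (adjusted p = 0.00969) and 3.66 ± 0.32 (0.000372), SWEET13 not without leaf 3 (0.0690) or leaf 4 (0.101).

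The loci whose pattern over the 6 biological samples was most like that of 2 oxidases were found by the root mean square difference of centred log2 CPM, with a pseudocount of 0.1 CPM. For GA2ox2, the highest in flower buds, they were PP2-A2 (AT4G19850) at 0.112, AT2G18600 at 0.138 and TRA2 (AT5G13420) at 0.146, and 1519 of 24042 loci were within 0.5. For GA3ox1, the highest by mean level over the 4 leaf samples, they were AT1G25550 at 0.199, AT1G69900 at 0.282 and AT5G26010 at 0.297, and 29 loci were within 0.5.

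The separate runs of a sample gave like values. Over the 24 values of these genes with at least 100 pairs in a HiSeq run, the CPM of the multiplex run divided by that of the HiSeq run had a median of 0.984 and a range of 0.592 to 1.12.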

How the data were processed

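Per the file headers, the authors deposited a raw count of proper read pairs for each of 28094 loci and library, with the length counted on, which served for levels per kb. Reads were handled with Bowtie2 2.0, per the submitters' processing notes. The genome build, annotation release, strand use and handling of multiply matching reads were each not given in the sources used here. RefSeq TAIR10.1 served for names and gene order only and matched 27320 loci. The 11 libraries were summed to 6 biological samples, with 1b counted in leaf 1. With 1b left out, the same 5 oxidases were called against leaf 1 and 2. The model was fitted in R 4.3.3 by edgeR 4.0.16 (with limma 3.58.1), using TMM factors, filterByExpr (minimum count 10), and terms for tissue and sequencer, and quasi-likelihood p-values were adjusted by Benjamini-Hochberg over 24043 loci. The script was tested on simulated counts. Standard errors were derived from the F statistic. Genes with 0 pairs in a group are lower bounds against 3 pairs over the group, and genes with 1 to 3 pairs are ratios with exact 95% intervals. These limits reflect counting error alone and leave out the spread between samples. Any PCR duplicates would also make pairs dependent, so the limits may be too narrow. Alternatives were DESeq2 1.42.0, other scaling, no filter, single run types, each replicate left out, and other sample sets. All 10 oxidases were named, with up to 4 called pathway genes per role by smallest adjusted p, and all genes of roles with 3 or fewer, and further genes of a role were named after their values were seen. The members and lists were chosen with earlier results of these data known.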

Additional observations from a re-analysis of the deposited data

Results flagged for a closer look

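GA2ox2 was at 11.7 CPM in leaf 2, far from the other leaf samples, of which the nearest, leaf 1, was at 4.74 CPM. The gap was 0.856 of the range of the 4 leaf samples, over Dixon's critical value for groups of that size. It was the single flag among 9 genes examined, and chance flags about 5% of such groups.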

How the results depend on the processing

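GA20ox2 and GA3ox3 kept their direction and call in all 18 alternatives against leaf 1 and 2 (1 of them with all 4 leaf samples) and all 15 against leaf 3 and 4, as did GA3ox1 against leaf 3 and 4. Against leaf 1 and 2, leaving out 1 biological sample gave 3 to 7 oxidases called and 11 to 19 pathway genes. With no sequencer term, which sets flower buds against all 4 leaf samples together, 2 oxidases and 11 pathway genes were called, and over all loci 4796 higher and 2397 lower, where the comparison with leaf 1 and 2 gave 7322 and 5017. Against leaf 3 and 4, leaving out 1 sample gave 3 to 6 oxidases called, and in leaf 3 and 4 against leaf 1 and 2 it gave 0 to 5. Over all loci this leaf comparison gave 371 higher and 426 lower without leaf 3, and 213 and 261 without leaf 4, against 2916 and 3652. A lone sample left in a group was assumed to vary like the others. In every comparison the number of all loci called also moved with the sample left out. The ranges of called genes thus describe no trait of the oxidases or pathway genes alone. Directions turned for genes that were not called, and for RGL3. GA3ox2 against leaf 1 and 2 was at -0.62 without flower bud 2, -0.57 without leaf 2 and up to 1.70 with other samples left out, and against all 4 leaf samples at -2.30. GA2ox2 ranged over -0.20 to 1.07 and GA2ox6 between leaf pairs over -0.13 to 0.98 with 1 sample left out. By library size only, GAI was at 0.15, SPY at 0.31, MYB33 at 0.40 and NPF3.1 at 0.28, and by upper quartile factors MYB33 was at 0.05. Against all 4 leaf samples, where leaf 3 and 4 join the leaves, SPY was at 0.04, MYB33 at 0.16, NPF3.1 at 0.60 and RGL3, called against leaf 1 and 2, at -0.22. With 1 sample left out SPY ranged over -0.80 to 0.08. GA2ox8 against leaf 3 and 4 ranged over -1.93 to 1.18 with 1 sample left out. Where no reason is given, the cause was not tested. Scaled by library size only, GA20ox1 was called higher against leaf 3 and 4 at 1.17 (adjusted p = 0.0285). GA3ox2 between leaf pairs was not called without flower bud 1 (0.0522) or 2 (0.0542). With a replicate block in the HiSeq2000 samples, 4 oxidases and 20 pathway genes were called, against 4 and 16 without it. Of 23841 loci, 6899 were called higher and 4789 lower with the block, and 6379 and 3888 without it. The deviations of same-numbered samples correlated at 0.276, but with 2 pairs and no label that ties a number to a shared batch, whether the numbers pair the samples was not settled.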
